A study of Mus musculus with 48 samples.

Results

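Potassium channel genes were taken as the rows of the expression table whose mouse symbol starts with Kcn, followed by the letters of a subfamily and a number. This gave 92 genes of the 24444 in the table, 77 of which encode the pore-forming subunit of a channel and 15 an auxiliary subunit. RNA was sequenced from the dissected cerebral cortex of 48 male mice on a C57BL/6J background, with 6 wild-type (WT) and 6 heterozygous Chd8 V986*/+ (HET) mice for each of 4 ages, embryonic (E14.5) and then 1, 6 and 12 months. The Chd8 V986*/+ mice carry a CRISPR/Cas9 insertion with tandem stop codons at V986 and E987 of Chd8, a chromatin remodeler, in a line that descends from 1 founder male backcrossed to C57BL/6J, and the WT mice were littermates. No mouse received a treatment, and the cortex of one hemisphere was taken from each. Values are the variance-stabilizing transformation (VST) expression that the authors deposited, on a log2 scale, so that a difference of 1 stands for a 2-fold change at high levels and for more than that close to the floor of the table.

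Potassium channels let potassium ions leave or enter a cell along their gradient, which sets the resting potential, ends action potentials and shapes how often a neuron fires. Voltage-gated (Kv) channels open on depolarization, calcium- and sodium-activated channels respond to ions that enter during activity, inward rectifiers hold the membrane near the potassium potential, and two-pore channels carry leak current. Auxiliary subunits form no pore and change the gating or the trafficking of the pore-forming subunits. In cortex, glia use inward rectifiers to take up potassium that neurons release.

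The sequence that the pore-forming members have in common is that of the selectivity filter, the narrowest stretch of the pore, where backbone oxygens replace the water around a potassium ion. The longest coding sequence of each gene in GENCODE vM1 (mm9) was read for 5 codons in a row that give serine or threonine, any residue, glycine, tyrosine or phenylalanine, and glycine. All 77 pore-forming members held such a stretch and none of the 15 auxiliary members did, against 2.49% of the coding sequences of 22567 genes. In 11 of the 14 two-pore members, whose protein carries a pair of pore loops, it occurred at least 2 times, while in the other 3, Kcnk1, Kcnk6 and Kcnk7, the second loop had a leucine codon at the fourth place. Stretches of 51 bases are printed for 6 members that stand for a fast voltage-gated channel, a channel with phenylalanine, a silent subunit, a calcium-activated channel, a neuronal inward rectifier, and the leucine form. They lie within coding exons at chr7:53683325-53683375 (plus strand) for Kcnc1, chr1:194161618-194161668 (plus strand) for Kcnh1, chr15:44940817-44940867 (minus strand) for Kcnv1, chr14:24347617-24347667 (minus strand) for Kcnma1, chr15:79315779-79315829 (minus strand) for Kcnj4 and chr8:128549211-128549261 (plus strand) for the second loop of Kcnk1. They are written 5′ to 3′ along the coding strand, with the 15 bases of the 5 codons in capitals.
Kcnc1: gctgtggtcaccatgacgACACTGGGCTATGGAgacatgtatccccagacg
Kcnh1: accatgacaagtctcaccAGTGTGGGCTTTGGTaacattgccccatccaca
Kcnv1: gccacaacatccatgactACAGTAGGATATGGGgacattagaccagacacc
Kcnma1: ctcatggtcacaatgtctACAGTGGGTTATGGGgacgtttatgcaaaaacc
Kcnj4: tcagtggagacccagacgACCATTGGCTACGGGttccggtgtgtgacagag
Kcnk1: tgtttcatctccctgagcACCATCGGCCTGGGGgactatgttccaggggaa

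Chd8 was lower in the Chd8 V986*/+ mice at every age with no overlap, from 11.60 to 12.03 against 12.33 to 12.66 in WT at E14.5. The cortical markers Emx1, Tbr1, Neurod6 and Fezf2 were expressed in all groups. At E14.5 the mean of 30 markers of midbrain, hindbrain and spinal cord ran from 3.11 to 6.39 in the WT mice, with WT replicate 5 highest, and from 3.15 to 4.26 in the Chd8 V986*/+ mice, and 23 of the 24 markers tested were lower in Chd8 V986*/+. Markers of choroid plexus varied between postnatal mice, with means of the 9 genes from 5.06 to 8.30. At 12 months WT replicate 6 had 68 of 85 potassium channel genes below the mean of its group, with a median deviation of −0.23. WT replicate 1 was next lowest, at −0.13. HET replicate 6 went the other way, with 66 of 85 members above the mean of its group and a median deviation of 0.15. Since bulk cortex was sequenced, fewer cells of a type and less RNA per cell cannot be told apart.

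The floor of the table was taken as its most frequent value, 2.14, where a gene had no measurable expression. Some single values lay below it, down to 1.96 in Kcnk15. In embryos of both genotypes, Kcna10 was at 2.17 in replicates 1 to 3 and at 2.12 in replicates 4 to 6. A spread of that size about the floor is not read as expression. Kcnk16 was at 2.14 in all 48 samples, and Kcnj1, Kcnk18 and Kcnmb3 had group means under 2.64, the level 0.5 above the floor that a gene had to reach on average to be tested, in all 8 groups. Another 7 members had some group means under that level: Kcna10 in 3 groups, Kcna7 in 7, Kcne1 in 7, Kcnj15 in 1, Kcnk15 in 2, Kcnk7 in 6 and Kcnv2 in 2. The other 81 members were above it in every group.

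The largest differences among the potassium channel genes were those between E14.5 and 1 month. Of 83 members tested in WT mice, 64 rose and 14 fell (limma, Benjamini-Hochberg adjusted p below 0.1), where 43.4% of all 17285 genes rose and 42.3% fell. A rise of at least 1 log2 unit was called for 58 members and a fall of that size for 6, against 22.7% and 17.7% of all genes, and in Chd8 V986*/+ for 59 and 7, against 23% and 18.3%. The median difference over the members tested was 2.18, beside 0.02 over all genes. In Chd8 V986*/+ mice, 65 of 83 members rose and 10 fell (43.7% and 42.4% of all genes), with a median difference of 2.32. At an unadjusted p under 0.05 the counts were 64 and 10 in WT (42.4% and 41.2% of all genes) and 65 and 10 in Chd8 V986*/+ (42.7% and 41.4%), and 4 of the falls called in WT, those of Kcne3, Kcnn4, Kcnq1 and Kcnv2, had an unadjusted p above 0.05. The steps of the genotypes share no mouse, and 73 members were called in the same direction in both, 93.6% of those called in WT and 97.3% of those called in Chd8 V986*/+. Most of all genes were called in each step too. The share of all genes called in both is not given here, so this agreement cannot be read as particular to the members. Of these 73, 63 rose and 10 fell. Mice of the 2 ages did not overlap for 61 members that were higher and 6 that were lower in WT, against 35% and 33.5% of all genes, and for 64 and 8 members in Chd8 V986*/+, against 35.5% and 33.9%. Without WT replicate 5 at E14.5, 65 members rose and 12 fell in WT, where 43.2% and 41.9% of all genes did. Among the falls in Chd8 V986*/+, also that of at least 1 log2 unit and without overlap, is Kcnj15, which passed the filter on low values only through its level in embryos and so had to differ.

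**Figure D1:**
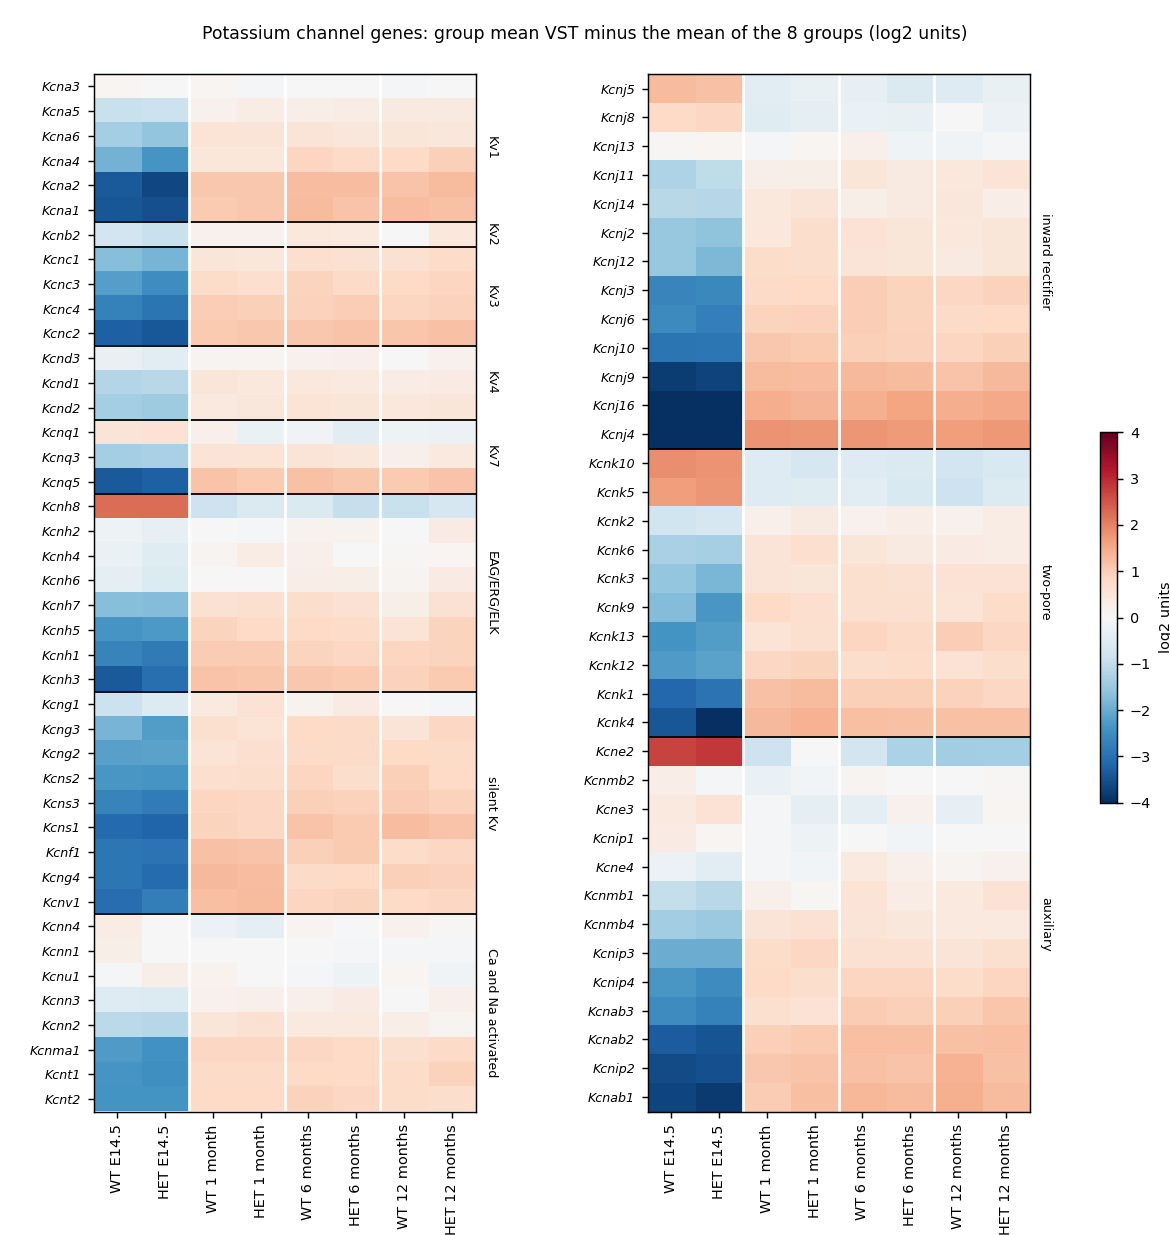
Group mean VST of 78 of the 81 members above the filter in every group, each gene shown as the difference in log2 units from its own mean over the 8 groups, with columns for WT and Chd8 V986*/+ (HET) mice by age and rows ordered by subfamily. Most rows are blue in the E14.5 columns and pale red at the 3 postnatal ages; Kcnh8, Kcnk10, Kcnk5, Kcnj5, Kcnj8 and Kcne2 are the reverse.

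Among the shaker-type Kv1 genes, 5 of the 6 tested rose in each genotype. Kcna1, whose channel opens at low voltages in axons and limits repetitive firing, ranged from 8.26 to 8.63 (median 8.38) in the 6 WT mice at E14.5 and from 12.80 to 13.06 (median 12.86) at 1 month. Every 1-month mouse was above every embryo, by 4.49 ± 0.06 (SE) in WT and 4.58 ± 0.13 in Chd8 V986*/+ (limma, adjusted p = 2.04e-17 and 5.88e-15). Kcna2, its partner at the juxtaparanodes of myelinated axons, ranged from 8.53 to 9.58 (median 9.19) and then from 13.39 to 13.72 (median 13.52) in WT, again with no overlap. Kcna3, known from lymphocytes as well as neurons, differed by 0.00 ± 0.06 and did not pass the test in either genotype. The Kv2 gene Kcnb2, which encodes a delayed rectifier, rose by 0.94 ± 0.12 in WT and 1.07 ± 0.10 in Chd8 V986*/+.

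All 4 Kv3 genes, whose channels close fast and allow high firing rates, rose in both genotypes, with a median rise of 3.33 in WT. Kcnc2, expressed in parvalbumin interneurons, ranged from 6.99 to 7.59 (median 7.38) in WT embryos and from 11.54 to 11.86 (median 11.65) at 1 month. The ages did not overlap, and the rise was 4.32 ± 0.09 in WT and 4.45 ± 0.10 in Chd8 V986*/+. Kcnc1, the other Kv3 gene of fast-spiking cells, rose by 2.18 ± 0.15 and 2.32 ± 0.12, and Kcnc4 by 3.71 ± 0.24 and 3.87 ± 0.10. WT replicate values of Kcnc4 at E14.5 spread from 6.16 to 7.92 (median 7.64), wider than the 6.96 to 7.64 of the Chd8 V986*/+ embryos. The 3 Kv4 genes, which carry the transient current of dendrites, rose by less. Kcnd2 rose by 1.76 ± 0.13 in WT and Kcnd1 by 1.65 ± 0.10, while Kcnd3, already at 10.52 to 11.28 in WT embryos, rose by 0.42 ± 0.10.

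The Kv7 genes divided. Kcnq3 and Kcnq5, neuronal members that carry the M-current, which restrains repetitive firing, rose by 1.91 ± 0.10 and 4.53 ± 0.07 in WT. Kcnq5 moved from 7.24 to 7.60 (median 7.35) in WT embryos to the range 11.82 to 12.08 at 1 month. Kcnq1, the channel of heart and epithelia, fell by 0.32 ± 0.16 in WT and by 0.85 ± 0.18 in Chd8 V986*/+ (limma, adjusted p = 0.0726 and 0.00045), with overlapping mice in both. Its locus also gives rise to the antisense RNA Kcnq1ot1, and the sources differ on whether the libraries kept strand, so part of its reads could come from that RNA.

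Of the 8 EAG, ERG and ELK genes, 6 rose in WT and 7 in Chd8 V986*/+. Kcnh3, an ELK channel of forebrain neurons, ranged from 7.06 to 7.96 (median 7.63) in WT embryos and from 11.91 to 12.20 (median 12.11) at 1 month, a rise of 4.50 ± 0.12. Kcnh1, an EAG channel, rose by 3.67 ± 0.10 in WT and 3.86 ± 0.06 in Chd8 V986*/+. Kcnh8, another ELK gene, went the other way, from 6.57 to 6.98 (median 6.75) in WT embryos and from 3.41 to 3.96 (median 3.73) at 1 month. No mouse overlapped, and the fall was 3.05 ± 0.13 in WT and 2.81 ± 0.13 in Chd8 V986*/+ (limma, adjusted p = 2.74e-12 and 4.94e-12).

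Silent Kv subunits form no channel alone and change the properties of Kv2 channels when they assemble with them. Of the 10 genes, 9 rose in both genotypes, with a median of 3.25 in WT and 3.32 in Chd8 V986*/+. Kcnv1 ranged from 7.34 to 7.99 (median 7.79) in WT embryos and from 11.85 to 12.16 (median 11.94) at 1 month, with no overlap. Kcng4, near the floor in embryos at 3.66 to 4.35, reached 7.995 to 8.44. The exception was Kcnv2, a subunit of photoreceptors, with a negative difference that passed the threshold in WT and not in Chd8 V986*/+, at -0.41 ± 0.21 in WT (limma, adjusted p = 0.0751) and -0.31 ± 0.22 in Chd8 V986*/+ (adjusted p = 0.198). Among the 8 calcium- and sodium-activated genes, 5 rose in each genotype, and 2 fell in WT and none in Chd8 V986*/+. Kcnma1, the large-conductance channel opened by calcium and voltage together, rose by 3.08 ± 0.15 in WT, and the sodium-activated Kcnt1 and Kcnt2 by 3.11 ± 0.13 and 3.19 ± 0.10. Kcnn2, a small-conductance channel of the afterhyperpolarization, rose by 1.56 ± 0.09 in WT. Kcnn1, of the same subfamily, fell by 0.22 ± 0.07 in WT with overlapping mice, and its difference in Chd8 V986*/+ was 0.04 ± 0.09.

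The widest range was among the inward rectifiers, where 10 of 14 members tested rose and 3 fell in each genotype. Kcnj4, a strong rectifier of forebrain neurons, ranged from 4.25 to 4.95 (median 4.50) in WT embryos and from 11.48 to 11.80 (median 11.68) at 1 month. The embryos and the 1-month mice were far apart in both genotypes, by 7.11 ± 0.11 in WT and 6.87 ± 0.10 in Chd8 V986*/+, the largest rise of any member tested in these steps (limma, adjusted p = 2.53e-17 and 4.37e-18). Kcnj16, which assembles with Kcnj10 in astrocytes, ranged from 2.999 to 5.10 (median 4.23) and then from 9.72 to 10.07 (median 9.91). Kcnj10, the main potassium uptake channel of astrocytes, rose by 3.99 ± 0.08 in WT and 3.92 ± 0.08 in Chd8 V986*/+. Of the genes for G-protein-gated channels, Kcnj3, Kcnj6 and Kcnj9 rose by 3.42 ± 0.08, 3.46 ± 0.18 and 5.06 ± 0.10 in WT, while Kcnj5, best known from the atrium, fell by 1.69 ± 0.16. The ATP-sensitive channels also went apart: Kcnj11, the neuronal form, rose by 1.48 ± 0.10, and Kcnj8, the form of pericytes and vascular muscle, fell by 1.28 ± 0.11. Kcnj8 ranged from 7.60 to 8.16 (median 7.78) in WT embryos and from 6.35 to 6.84 (median 6.48) at 1 month. Kcnj15, with values near the floor, fell by 0.67 ± 0.25 in WT with overlapping mice and by 1.82 ± 0.23 in Chd8 V986*/+ without overlap. Its mean in Chd8 V986*/+ mice was 4.16 at E14.5 and 2.34 at 1 month, under the level of the filter, so that its call in Chd8 V986*/+ supports nothing about the members.

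Of 10 two-pore members tested, 8 rose and 2 fell in each genotype. Kcnk1, a weak leak channel of neurons and astrocytes with the leucine codon shown above, rose by 4.30 ± 0.08 in WT from embryos at 6.90 to 7.44. Kcnk4, a channel gated by stretch, ranged from 2.96 to 3.74 (median 3.38) in WT embryos and from 2.13 to 3.37 (median 2.91) in Chd8 V986*/+ embryos, close to the floor, and rose by 4.71 ± 0.14 and 5.37 ± 0.17. Kcnk2, of the same stretch-gated branch, rose by 1.02 ± 0.07 in WT. Kcnk10, the third gene of that branch, fell instead. WT embryos ranged from 10.32 to 10.71 (median 10.57) and 1-month mice from 8.04 to 8.31 (median 8.17), a fall of 2.36 ± 0.07, and in Chd8 V986*/+ of 2.47 ± 0.08 (limma, adjusted p = 4.25e-14 and 4.24e-14). The acid-sensitive Kcnk5 fell by 2.20 ± 0.22 and 2.24 ± 0.20.

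Auxiliary genes for the most part rose: 8 of 13 tested rose and 4 fell in WT, and 9 rose and 3 fell in Chd8 V986*/+. Kcnab1, a cytoplasmic beta subunit of Kv1 channels, ranged from 6.22 to 7.16 (median 6.93) in WT embryos and from 11.29 to 11.77 (median 11.54) at 1 month, and Kcnab2 rose by 4.28 ± 0.10. Kcnip2 and Kcnip4, calcium-binding partners of Kv4 channels, rose by 4.66 ± 0.07 and 3.10 ± 0.15, while Kcnip1, of the same family, fell by 0.42 ± 0.08 in WT and 0.29 ± 0.08 in Chd8 V986*/+. The gene Kcnmb1 lies within Kcnip1 on the opposite strand, so reads of that stretch cannot be assigned without strand. Kcne2, a single-span subunit that choroid plexus epithelium makes in quantity, ranged from 7.61 to 8.70 (median 8.19) in WT embryos and from 3.41 to 6.38 (median 4.38) at 1 month, a fall of 3.53 ± 0.40. The postnatal range of Kcne2 was the widest of these, and choroid plexus markers moved with it, as given further on.

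**Figure D2:**
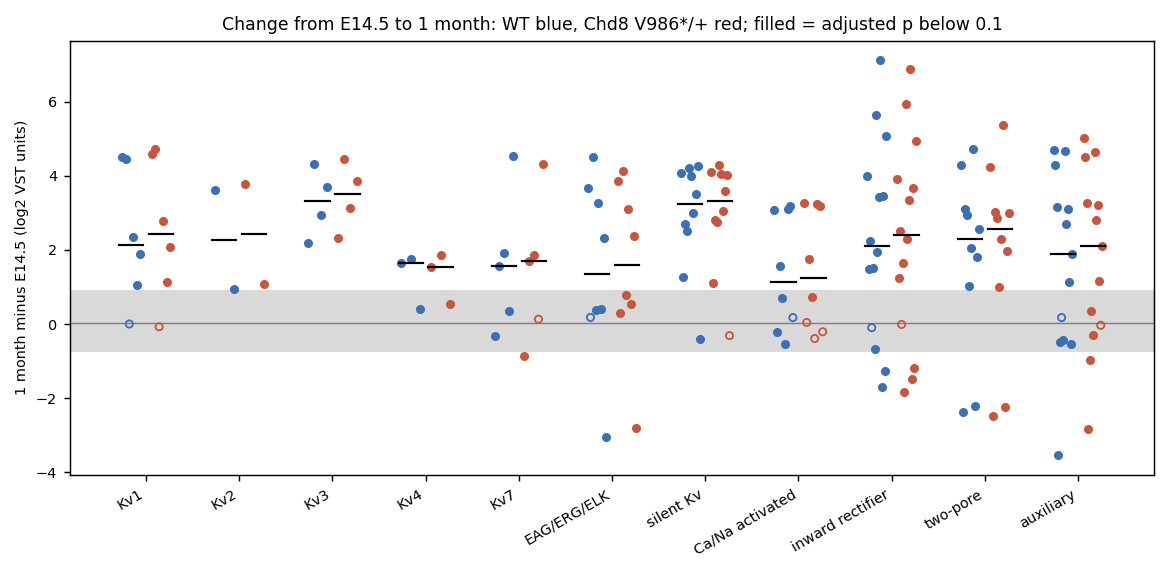
Difference between 1 month and E14.5 in log2 VST units for every member tested, by subfamily, with WT in blue and Chd8 V986*/+ in red. Filled points passed an adjusted p of 0.1, black bars are medians of the subfamily, and the grey band holds the middle 50% of all genes tested in WT; the medians of all 11 subfamilies lie above the band.

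**Figure D3:**
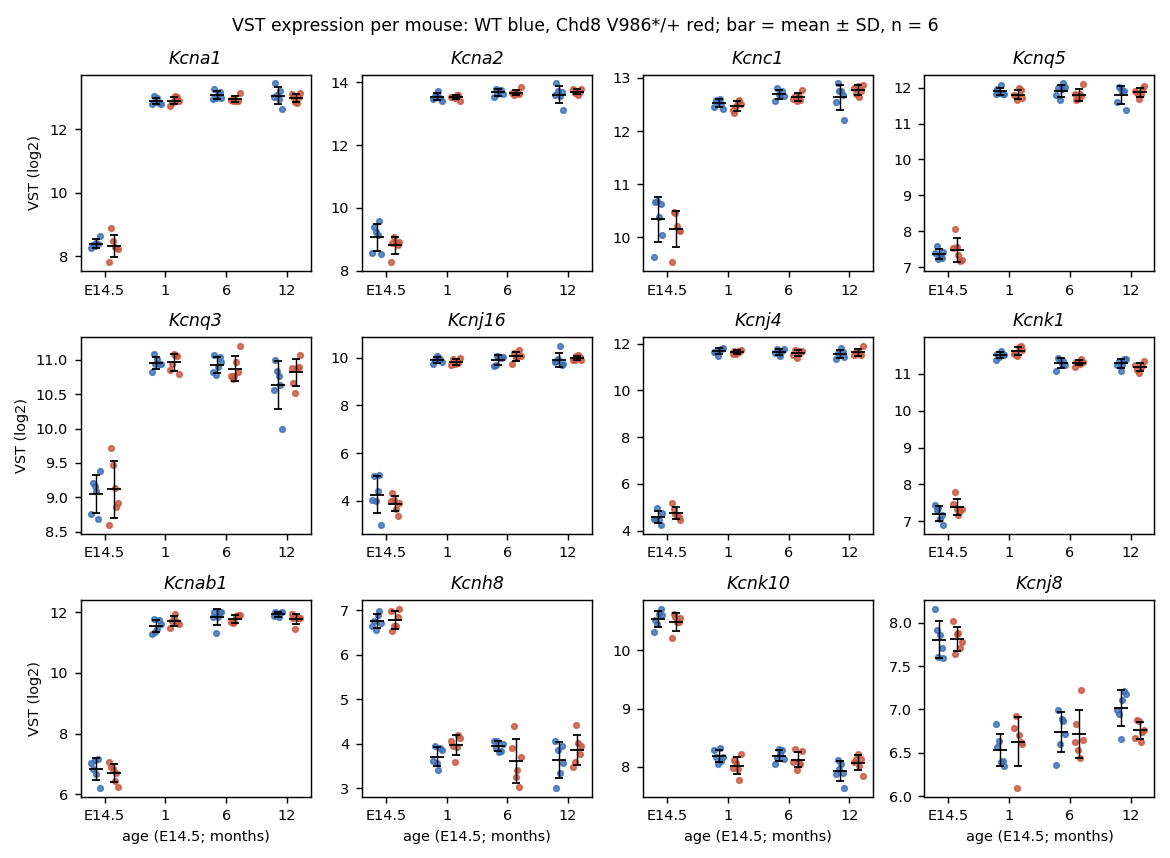
VST expression per mouse (log2 scale) of 12 members by age, with WT in blue and Chd8 V986*/+ in red, 6 mice each, and bars for mean ± SD. The embryos are separate from all postnatal mice in each panel, and the genotypes overlap at every age.

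Of the genes related to these channels but named outside the rule, 10 of 17 tested rose and 6 fell from E14.5 to 1 month in each genotype. Of all genes, 43.4% rose and 42.3% fell in WT, and 43.7% and 42.4% did in Chd8 V986*/+. Hcn2, a cation channel of the h-current, rose by 4.22 in WT, whereas Hcn3 and Hcn4 had differences of −1.15 and −2.61. Dpp6 and Dpp10, which join Kv4 channels, rose by 1.41 and 2.60. The sulfonylurea receptors had the same signs as the channels they assemble with, Abcc8 rising by 1.14 as Kcnj11 did and Abcc9 differing by −1.27 as Kcnj8 did.

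After the first month the potassium channel genes changed little. Between 1 and 6 months no member had both an adjusted p below 0.1 and a difference of at least 1 log2 unit in either genotype, as 0.209% of all genes did upward and 0.348% downward in WT and 0.139% and 0.343% in Chd8 V986*/+. By the adjusted p alone, 16 of 86 members tested were higher at 6 months than at 1 month in WT mice and 6 were lower (12.3% and 12.3% of all genes). In Chd8 V986*/+ mice 11 of 85 were higher and 11 lower (14% and 12.8% of all genes). Of the 22 called in each genotype, 10 were called in both and with the same sign, 45.5% of each list. The matching share over all genes is not given here, so this overlap cannot be set against it. Among these 10 members, Kcna4, Kcnab2, Kcnab3 and Kcnc1 rose and Kcng1, Kcng4, Kcnj12, Kcnk1 and Kcnv1 fell.

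Kcnab3, a beta subunit of Kv1 channels, ranged from 9.96 to 10.22 (median 10.14) at 1 month and from 10.23 to 10.60 (median 10.53) at 6 months in WT. In Chd8 V986*/+ it ranged from 9.63 to 10.22 (median 10.13) and then from 10.29 to 10.61 (median 10.38). The ages did not overlap in either genotype, and the rises were 0.35 ± 0.06 and 0.40 ± 0.09 (limma, adjusted p = 0.00113 and 0.00665). Kcna4, a transient Kv1 channel of axons, rose by 0.40 ± 0.09 and 0.31 ± 0.09, with mice that overlapped. The silent subunit Kcnv1 fell from the 1-month range of 11.85 to 12.16 to 11.40 to 11.78 in WT, and from 11.92 to 12.13 to 11.44 to 11.84 in Chd8 V986*/+, without overlap in either. The falls were 0.33 ± 0.06 and 0.38 ± 0.06. Kcng4, the other silent subunit named above, fell by 0.54 ± 0.09 and 0.41 ± 0.11, so that part of the rise of both before 1 month was lost again. Kcnk1 fell by 0.21 ± 0.06 and 0.32 ± 0.05.

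Further calls were made in a single genotype, which does not show that the genotypes differ. In WT, Kcnmb2, a beta subunit of the large-conductance channel, rose by 0.37 ± 0.10, Kcne4 by 0.46 ± 0.17 and Kcnab1 by 0.30 ± 0.11, and the silent subunit Kcnf1 fell by 0.21 ± 0.07. In Chd8 V986*/+, Kcnj16 rose by 0.24 ± 0.08 and Kcne3 by 0.57 ± 0.21, while Kcnk6 fell by 0.33 ± 0.08 and Kcnip3 by 0.24 ± 0.06. The means of Kcne3 at these ages, 3.25 and 3.82, were near the floor. When all 48 samples were fitted together, 7 members were higher and 4 lower in WT (9.12% and 9.61% of all genes), and 2 were higher and 5 lower in Chd8 V986*/+ (9.9% and 9.71%).

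From 6 to 12 months, 0 of 84 members were called in WT (0% of all genes higher and 0.00579% lower), and at an unadjusted limma p under 0.05 there were 2 higher and 7 lower members (3.08% and 3.67%). The median difference in WT was −0.10, beside −0.01 over all genes, and 66 of 84 members lay below 0. Above 0 were 21.4% of the members and 46.9% of all genes. Without WT replicate 6 at 12 months, the WT mouse farthest below its group mean, the median was −0.05 and 51 members of 85 lay below 0. In Chd8 V986*/+ mice 1 of 85 members was called, the small-conductance channel gene Kcnn2 (1.07% of all genes higher and 2.36% lower). Kcnn2 ranged from 9.86 to 10.47 (median 10.09) at 6 months and from 9.74 to 9.93 (median 9.85) at 12 months. The mice overlapped, and the fall was 0.28 ± 0.07 (limma, adjusted p = 0.0696; exact two-sided permutation p = 0.00866). This call was lost without HET replicate 2, 3 or 4 at either age, and also with no filter on low values or with all 48 samples in a single fit.

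Between genotypes, no potassium channel gene passed an adjusted p of 0.1 at any age in the limma fit of that age. In order of age, 83, 85, 86 and 84 members were tested. The shares of all genes called higher in Chd8 V986*/+ were 0%, 0.0348%, 0.0522% and 0.00578%, and those called lower were 0.00593%, 0.105%, 0.0406% and 0.0405%. At an unadjusted limma p under 0.05, 3, 4, 3 and 6 members were higher, where 2.21%, 3.73%, 3.54% and 6.18% of all genes were, and 5, 3, 2 and 5 members were lower, where 2.35%, 5.07%, 4.05% and 5.39% were. At no age did any member have genotypes whose mice did not overlap. Of all genes, 0.172%, 0.383%, 0.226% and 0.37% had such a separation with Chd8 V986*/+ higher and 0.0889%, 0.441%, 0.301% and 0.497% with Chd8 V986*/+ lower.

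**Figure D4:**
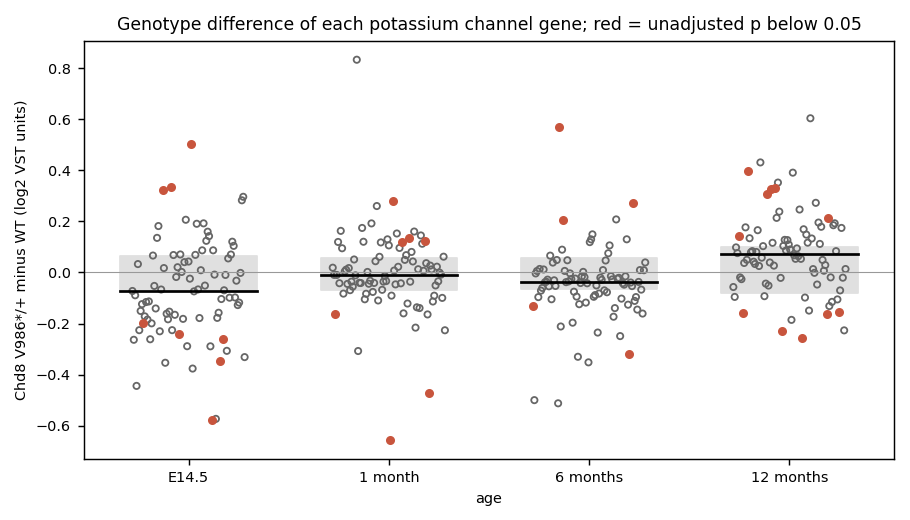
Difference between Chd8 V986*/+ and WT mice in log2 VST units for every member tested, by age, with members at an unadjusted limma p under 0.05 in red. The black bar is the median of the members and the grey band holds the middle 50% of all genes tested; the bars are at −0.07, −0.01, −0.04 and 0.07.

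At E14.5 the median difference over the members was −0.07, beside 0.00 over all genes, and 53 of 83 members were below 0. Above 0 were 36.1% of the members and 50.4% of all genes. With the mean of the posterior markers as a covariate, the median was 0.01 and 37 members were below 0. These markers themselves differed between the genotypes, with 23 of 24 lower in Chd8 V986*/+, so the covariate cannot separate posterior tissue from genotype. Kcnk4 ranged from 2.96 to 3.74 (median 3.38) in WT and from 2.13 to 3.37 (median 2.91) in Chd8 V986*/+ embryos, with 4 of the 6 Chd8 V986*/+ embryos below all WT embryos. Its difference of -0.58 ± 0.20 did not pass the correction (limma, adjusted p = 0.982; exact permutation p = 0.013). Kcnh3 ranged from 7.06 to 7.96 (median 7.63) in WT and from 7.73 to 8.29 (median 7.83) in Chd8 V986*/+, a difference of 0.34 ± 0.14. The other members with the lowest p were Kcnip1 at -0.24 ± 0.08, Kcnn1 at -0.26 ± 0.09 and Kcnmb2 at -0.35 ± 0.14. In the single fit of all 48 samples, Kcnh3 was called higher and Kcnk4 lower, as were 0.296% and 0.415% of all genes. The 6 cortical markers were all above 0 at this age (median 0.34). The part of posterior tissue in these differences was not tested, either for the members as a set or gene by gene.

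At 1 month the median was −0.01, with 41 members above 0 and 44 below. Over all genes the median was −0.003, with 48.6% above 0, beside 48.2% of the members. Kcna3 had the lowest p, with WT mice at 8.54 to 8.75 and Chd8 V986*/+ mice at 8.39 to 8.63, a difference of -0.16 ± 0.06 (limma, adjusted p = 0.431). Kcnk2, the stretch-gated leak channel, differed by 0.13 ± 0.05, Kcnj2, a strong inward rectifier, by 0.28 ± 0.11, Kcnq1 by -0.47 ± 0.20 and Kcnj15 by -0.65 ± 0.28. In Kcnj15, HET replicate 1 was at 3.36 and the other 5 Chd8 V986*/+ mice were near the floor, at 2.11 to 2.18. Its mean was 2.34 in Chd8 V986*/+ and 2.99 in WT, so that it passed the filter only through the WT mice and its place among the lowest p carries no weight. Choroid plexus markers were higher in Chd8 V986*/+ at this age for 9 of 9 genes (median 0.61) and striatal markers for 10 of 10 (median 0.33), while endothelial and mural markers were lower for 6 of 7 (median −0.25) and microglial markers for 7 of 8 (median −0.10). None passed the correction, and their part in these values was not tested.

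At 6 months the median was −0.04 and 61 of 86 members were below 0. Over all genes the median was −0.0009, with 49.6% above 0, beside 29.1% of the members. Kcng1, a silent subunit, ranged from 8.80 to 9.13 (median 8.90) in WT and from 8.91 to 9.29 (median 9.11) in Chd8 V986*/+ mice, with overlap, and differed by 0.20 ± 0.07 (limma, adjusted p = 0.509; exact permutation p = 0.0303). Of the others with a low p, Kcne3 differed by 0.57 ± 0.22, Kcna1 by -0.13 ± 0.06 and Kcnq1 by -0.32 ± 0.15. Kcne3 was near the floor, with means of 3.82 in Chd8 V986*/+ and 3.25 in WT. At this age all 9 choroid plexus markers were lower in Chd8 V986*/+ (median −0.67), and so were all 8 oligodendrocyte markers (median −0.25), while all 8 astrocyte markers (median 0.12) and 6 of 7 endothelial and mural markers (median 0.13) were higher. None passed the correction, and their part in the members' values was not tested.

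At 12 months the median was 0.07 and 59 of 84 members were above 0. Over all genes it was 0.0046, with 51.4% above 0, beside 70.2% of the members. Without WT replicate 6 the median was 0.03, with 52 of 85 members above 0, and without WT replicate 1 it was 0.04. HET replicate 6 lay above its group, with a median deviation of 0.15, and the median without that mouse is not given here. Kcnip2, the Kv4 partner, ranged from 11.79 to 12.06 (median 11.89) in WT and from 11.62 to 11.80 (median 11.67) in Chd8 V986*/+ mice. Of the Chd8 V986*/+ mice 5 were below all WT mice, and the difference was -0.23 ± 0.06 (limma, adjusted p = 0.208; exact permutation p = 0.00433). All 10 striatal markers were lower in Chd8 V986*/+ at this age (median −0.32), and so were 5 of 9 choroid plexus markers (median −0.22). Of the progenitor and young neuron markers, 4 of 6 were higher (median 0.31). None of these passed the correction. Kcnip2 is also made in striatum, and the part of striatal tissue in its difference was not tested. Kcnh4, set beside the striatal markers further on, differed by 0.03 ± 0.14. Kcnh2, the ERG channel gene of the heart's repolarizing current, ranged from 9.47 to 9.90 (median 9.71) in WT and from 9.86 to 10.34 (median 9.99) in Chd8 V986*/+, a difference of 0.33 ± 0.09 (limma, adjusted p = 0.229). Kcnb2 differed by 0.40 ± 0.13, Kcnj8 by -0.26 ± 0.10 and Kcns2, a silent subunit, by -0.16 ± 0.06. The genotypes overlapped for Kcnb2 (exact two-sided permutation p = 0.0303), with WT mice from 8.50 to 9.30 (median 9.02). Its mean at 6 and 12 months was 9.32 and 8.92 in WT and 9.29 and 9.32 in Chd8 V986*/+. Its difference without WT replicate 6 or 1 is not given here. Kcnb2, Kcnh2 and Kcnip2 were called in the single fit of all 48 samples (1.36% of all genes higher and 1.65% lower), and Kcnh2 and Kcnip2 in the fit of this age without WT replicate 3 (0.631% and 0.822%).

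A change in the genotype difference from one age to the next was tested in a fit of all 48 samples, and 0 of 85 members passed in each of the 3 steps (0%, 0% and 0.0404% of all genes with a more positive difference at the later age, and 0%, 0% and 0.0173% with a more negative one). At an unadjusted limma p under 0.05 the difference became more positive for 7, 2 and 6 members (2.22%, 1.81% and 4.45% of all genes) and more negative for 3, 4 and 0 (2.37%, 1.54% and 4.23%). The lowest p in the step from E14.5 to 1 month was that of Kcnk4, with a change of 0.66 ± 0.18 (limma, adjusted p = 0.679), followed by Kcnh3 at -0.37 ± 0.12 and Kcnmb2 at 0.49 ± 0.17. From 1 to 6 months they were Kcne3 at 0.88 ± 0.30, Kcnh8 at -0.59 ± 0.24 and Kcnj2 at -0.37 ± 0.15, and from 6 to 12 months Kcnh5 at 0.40 ± 0.16, Kcnb2 at 0.43 ± 0.17 and Kcnh2 at 0.33 ± 0.14. Kcne3 and Kcnh8 lay near the floor, with means of 3.82 and 3.62 in Chd8 V986*/+ mice at 6 months. Without WT replicate 6 at E14.5, 3 members were called in the first step, Kcnh3, Kcnk4 and Kcnmb2, and of all genes 0.537% with a more positive and 0.144% with a more negative difference.

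Some members are known from cells other than cortical neurons, and their values were set beside the mean of the markers of those cells over the 36 postnatal mice, in a family of 8 relations tested with 100000 permutations. Kcne2 ranged from 2.74 to 7.15 and rose with the mean of the 9 choroid plexus markers (Pearson r = 0.95, Spearman rho = 0.90). Kcnj13, an inward rectifier of the same epithelium, ranged from 4.48 to 8.04 (r = 0.86, rho = 0.74). For both, permutation p was 1e-05, the smallest that 100000 permutations can give, and the adjusted p was 4e-05 for r and rho. Within ages r was 0.98, 0.94 and 0.94 for Kcne2 and 0.91, 0.90 and 0.74 for Kcnj13 at 1, 6 and 12 months, and without the 2 mice farthest from the median of the markers it was 0.93 and 0.81.

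**Figure D5:**
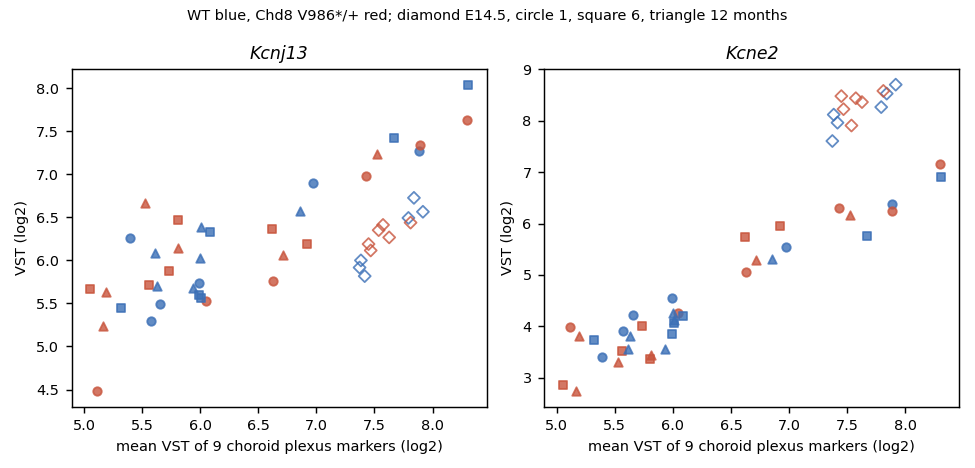
VST expression (log2 scale) of Kcnj13 and Kcne2 in all 48 mice against the mean VST of 9 choroid plexus markers, with WT in blue and Chd8 V986*/+ in red, and open diamonds for E14.5. In postnatal mice both genes are higher where the markers are higher, and at the same marker level the E14.5 mice sit lower for Kcnj13 and higher for Kcne2.

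Kcnj8 followed the endothelial and mural markers (r = 0.64, rho = 0.63, adjusted permutation p = 0.00011 and 0.00012), Kcnj10 the astrocyte markers (r = 0.57, rho = 0.63, adjusted p = 0.00035 and 0.00013) and Kcnip2 the striatal markers (r = 0.61, rho = 0.65, adjusted p = 0.00028 and 0.00011). The raw permutation p of these 3 were 4e-05, 0.00022 and 0.00014 for r and 6e-05, 8e-05 and 4e-05 for rho. Without the 2 farthest mice r was 0.54, 0.52 and 0.57. For Kcnip2, r within 6 months was 0.35, and 0.66 and 0.73 within 1 and 12 months. These values pool the genotypes. Between genotypes, Kcnip2 and the median striatal marker differed by 0.06 and 0.33 at 1 month and by −0.23 and −0.32 at 12 months. At 6 months the differences were −0.04 and 0.002. The r within a single genotype is not given here. The relations of Kcnj16 with astrocyte markers (r = 0.30, rho = 0.31), Kcnk13 with microglial markers (r = 0.16, rho = 0.22) and Kcnh4 with striatal markers (r = 0.18, rho = 0.15) did not pass, with adjusted permutation p of 0.106 and 0.092, 0.344 and 0.228, and 0.321 and 0.371, and raw p of 0.0795 and 0.0692, 0.344 and 0.200, and 0.281 and 0.371. Within 1, 6 and 12 months r was 0.55, 0.76 and 0.15 for Kcnj16, beside 0.54, 0.60 and 0.50 for Kcnj10, so that the pooled r of Kcnj16 was lower than its r within each of the first 2 of these ages. It was 0.14, 0.42 and 0.16 for Kcnk13, 0.42, 0.31 and 0.14 for Kcnh4, and 0.58, 0.66 and 0.52 for Kcnj8.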

How the data were processed

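The cerebral cortex of 48 mice was analysed by RNA-seq. Per the methods and the submitters' notes, the authors filtered and trimmed reads, aligned them to mm9 with STAR 2.5.2b, quantified transcripts with Salmon 0.11.3 and used DESeq2 (listed in the notes as DESeq 1.22.2) with batch correction. What the batches were is not given in the sources used here. For the libraries, the methods name stranded KAPA reagents and the sample labels a TruSeq kit. The authors deposited variance-stabilized expression values on a log2 scale, in a table of 24444 genes. In the deposited table, no gene had means of replicates 1 to 3 and of replicates 4 to 6 further apart than 3.2e-14, which shows that this difference was taken out beforehand. Counts were not used here. The study lists a read depth for each sample, which was not used here. The deposited table holds no counts from which the depth of a single gene's value could be read, so precision is given by the spread between 6 mice, which are separate animals.

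Genes with a mean over the samples of a fit at least 0.5 above the floor of 2.1433 were tested with limma 3.58.1 in R 4.3.3, with an intensity trend. Each comparison of 6 against 6 mice was fitted alone and changes of the genotype difference in a fit of all 48 samples, with Benjamini-Hochberg adjustment over all genes tested and a threshold of 0.1. Single values were checked with exact two-sided permutation tests, whose smallest p is 0.0022. The fits were also run on simulated data with independent normal noise and added differences, and the outcome is not reported here. In text, errors of differences are SE, and ranges run over 6 mice.

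The members and all lists were chosen with earlier results of these data known. Named are, for the WT step from E14.5 to 1 month, up to 2 called members per subfamily with the largest rise and fall without overlap, for other age steps up to 5 of each, for genotype the 5 members with the lowest p, for changes of the genotype difference the 3 lowest, and a fixed list of 16 well-known channels. Members at or near the floor are listed by name, and results of some genes that the rule names are not reported here. Kcnd3, Kcnh4, Kcnj3, Kcnj11, Kcnj12, Kcnj13, Kcnk13, Kcnn4 and Kcnv2 fall outside this rule and were named after their values were seen. Sequences and positions are from GENCODE vM1 (mm9), in which all 92 members were found. The alternatives were a replicate block, a covariate for replicates 1 to 3 against 4 to 6, other filters, no trend, quantile normalization, median centring, a single fit of all samples, posterior markers as a covariate, an adjusted p below 0.05 and leaving out each mouse. Further computation used scipy 1.17.1 and pandas 2.3.3, with plots from matplotlib 3.10.9 (Python 3.11.15, numpy 2.4.6).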

Additional observations from a re-analysis of the deposited data

Results flagged for a closer look

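Among 169 groups of 6 mice examined, 7 held a mouse far from the other 5 by Dixon's criterion at 95%, which is 4.14% of them where chance gives about 1 in 20. Kcna4 was at 9.26 in HET replicate 3 at 6 months, with the other 5 mice between 9.80 and 9.92. Kcnab1 was at 11.32 in WT replicate 3 at 6 months (others 11.85 to 12.01). Kcnip3 was at 11.36 in HET replicate 1 at 6 months (others 11.60 to 11.67). Kcnj15 was at 3.36 in HET replicate 1 at 1 month, with the others near the floor (2.11 to 2.18). In HET replicate 1 at E14.5, Kcnk10 was at 10.21 (others 10.48 to 10.63) and Kcnn1 at 8.39 (others 8.75 to 8.91). The median deviation of the members from their group means was 0.071 in HET replicate 6 at 6 months, and between −0.071 and −0.025 in the other 5 mice of that group.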

How the results depend on the processing

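With all 48 samples in a single fit, 2 members were called between genotypes at E14.5 and 3 at 12 months, where the fits of each age called 0, and the counts between 1 and 6 months were 11 in WT and 7 in Chd8 V986*/+, against 22 in each. At an adjusted p below 0.05 the latter count was 14. The single call between 6 and 12 months in Chd8 V986*/+ was lost (0 members) at that threshold, with no filter, without a trend and in the single fit, and the count was 2 with the stricter filter, with the covariate for replicates 1 to 3 against 4 to 6 and with the replicate block. Under quantile normalization the 1 member called was Kcnc1 instead of Kcnn2. Leaving out 1 mouse gave from 0 to 3 calls in that comparison (3 without HET replicate 6 at 6 months), from 0 to 2 between genotypes at 12 months and from 0 to 3 for the change of the genotype difference from E14.5 to 1 month (3 without WT replicate 6 at E14.5). It gave from 75 to 79 calls for E14.5 to 1 month in WT and from 74 to 77 in Chd8 V986*/+, and from 17 to 24 and from 15 to 24 for 1 to 6 months. The causes were not tested. In the main fit of E14.5 to 1 month in WT, 43.4% of all genes rose and 42.3% fell. For most counts in this section the share of all genes under the same setting is not given here. These counts therefore cannot be read as particular to the members.

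The replicate numbers were not taken as pairs in the main fits. The mean correlation of same-numbered mice was 0.23 at E14.5, with 4 of 6 pairs over 0.1, and 0.02, 0.05 and −0.03 later. At E14.5 the highest was 0.56, and 4 of 6 WT embryos correlated best with the embryo of their own number. At the later ages 1, 1 and 0 WT mice did. Some embryos may be paired, but the source of these correlations was not tested. The main E14.5 comparison took the embryos as unpaired. The replicate block gave 2 members, Kcng1 and Kcnj11, between 6 and 12 months in Chd8 V986*/+, and changed no other count by over 1.5 times.

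Quantile normalization moved the median of all genes between E14.5 and 1 month in WT from 0.02 to −0.11 and that of the members from 2.18 to 2.04. With no filter it was 1.90 and with the stricter filter 2.29. Among 2173 recomputed values of 88 named results, none reversed, 53 lost and 10 gained a call.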
